A study of Petunia x hybrida with 7 samples.

Results

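PhDEF binding sites found in both kinds of petunia chimera were ranked in each and compared, to describe which sites stood higher where the epidermis keeps the protein and which where the mesophyll keeps it. The sites were peaks of chromatin immunoprecipitation followed by sequencing (ChIP-seq), which reads out the genomic positions that a protein occupies. A site was a wico peak and a star peak that shared at least 1 bp, with no second partner on either side. There were 1186 such sites, out of 9626 peaks in the 3 lists of the series. They took up 27.7% of the 4276 wico peaks and 53.5% of the 2216 star peaks. A further 2 wico and 4 star peaks met several partners and were left out, while 3088 wico peaks and 1026 star peaks met none. Every peak was given a percentile inside its own list, where 100 is the strongest, and a site was called higher in a genotype when its percentile there exceeded the other by 25 points or more and both replicate columns moved the same way. By this rule 261 sites (22.0%) were higher in wico and 125 (10.5%) in star, and 800 were neither.

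All petals were taken whole, tube and limb together, at stage 8 from cultivar R27 of Petunia x hybrida, cross-linked with disuccinimidyl glutarate at 2.5 mM and formaldehyde at 1%, and precipitated with an antibody against PhDEF. Wico petals have a wild-type epidermis over a mesophyll mutant for phdef, and star petals have a mutant epidermis over a wild-type mesophyll. Wild-type petals keep the gene in both layers and gave the remaining list. Each genotype had 2 immunoprecipitated libraries, described as biological replicates, which the authors had joined into 1 list of reproducible peaks. A single input library was made from wild-type petals, and no list of it was used here. Both layers were ground together in every sample, so the layer behind a peak follows from the genotype and was not separated physically.

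PhDEF is a MADS-domain transcription factor of the B class, the group of floral regulators that specify petals and stamens together with other MADS-domain partners. Proteins of this family bind DNA as dimers or larger complexes at CArG boxes, short sequences with an AT-rich core. A petal is built from clonal layers, of which the outermost gives the epidermis and an inner one gives the mesophyll. In petunia the epidermis of the limb carries the anthocyanin pigment, and the mesophyll fills the inside of tube and limb. Periclinal chimeras, in which the layers differ in genotype, show what a gene does when it acts in one layer alone. Wico flowers are known for a pigmented limb on a short tube, and star flowers for a well-grown tube under a pale, star-patterned limb. The lists name no genes and no sequences, so sites are given by position in the scaffolded assembly that the authors used, whose name is not given in the sources used here. Whether they lie in promoters, exons or introns was not analysed here.

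Signal strength is the peak caller's value as deposited. What it is relative to is not stated, and it is given here without a unit and ranked only inside a list. Each list carries the signal of each replicate in its own column, called the first and the second, and their sum. The median summed signal was 10.2 in the wico list and 9.59 in the star list. The depth of the libraries is unknown, since the lists hold no read counts. No test between the genotypes was made, because the rule that sorts the sites uses the replicate columns themselves. The spread between those columns is given in its place. Intervals of shares are exact Clopper-Pearson intervals at 95%, those of medians come from order statistics, and both cover counting error only, because sites are not replicates.

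Sites shared by the chimeras came from the upper part of both lists. Their median percentile was 74.6 in wico (95% interval 72.4 to 76.8) and 63.9 in star (61.3 to 66.7). The median shift, wico minus star, was 5.22 points (3.54 to 7.11), with an SD across sites of 27.3, and it ran from -79.0 to 89.0. A positive shift was seen at 740 sites and a negative one at 445. Since both layers contribute to each sample, fewer cells bound and less binding per cell cannot be told apart in any of these values.

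The shift between the chimeras was set against the shift between replicates of 1 chimera at the same sites. Between the first and second wico columns, 190 of 1186 sites (16.0%) differed by 25 points or more, and between the star columns 374 did (31.5%). Between wico and star, the first columns differed by that much at 486 sites (41.0%) and the second columns at 410 (34.6%). The spread between genotypes was thus wider than that between wico replicates. Against the star replicates, whose share had an interval of 28.9 to 34.3%, it was wider by more than counting error in the first columns (38.2 to 43.8%) but not in the second (31.9 to 37.4%). The rank correlation across the sites told the same order, at 0.82 between the wico columns, 0.60 between the star columns and 0.40 to 0.48 for each column of wico against each column of star. All sites had passed the authors' reproducibility filter in both genotypes, so these correlations are descriptions over a selected set.

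**Figure D1:**
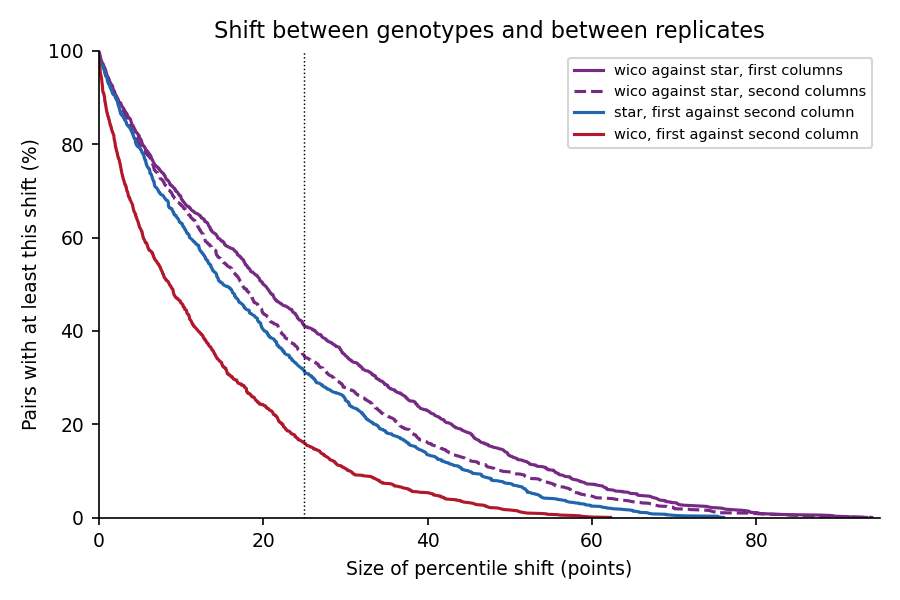
Percentage of the 1186 shared sites (y axis) whose percentile shifted by at least the number of points on the x axis, for wico against star in the first and second columns and for the 2 replicates of each chimera; the dotted line marks 25 points. At 25 points the curves pass 41.0% and 34.6% between genotypes, 31.5% between star replicates and 16.0% between wico replicates.

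The called sites together made up 32.5% of the pairs. In the summed signal alone, 409 sites (34.5%) shifted by 25 points or more, so the condition on the replicate columns removed 23. The rule used the replicate columns, so their separation at the called sites describes these sites and is no support for the call. Both wico columns ranked above both star columns at 251 of the 261 sites higher in wico, which is 21.2% of all pairs. Both star columns ranked above both wico columns at 112 of the 125 sites higher in star, or 9.44% of all pairs. The shift was larger than either genotype's own replicate shift at 209 of 261 sites (80.1%, 74.7 to 84.8%) and at 99 of 125 sites (79.2%, 71.0 to 85.9%), against 166 of the 800 others (20.8%) and 40.0% of all pairs. Each column passed 25 points on its own at 146 of the 261 sites and at 50 of the 125, against 197 of all 1186 pairs. Most sites higher in star thus fell short of 25 points in at least 1 column.

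The balance in favour of wico depended on how the peaks were ranked. Of the called sites, 67.6% were higher in wico. When the percentiles were taken among the 1186 pairs alone, 196 sites were higher in wico and 204 in star, so that 49.0% were higher in wico. Of the 261 and 125 original sites, 190 and 121 were called again in the same direction. With the wico list cut to its 2216 strongest peaks before pairing, 122 sites were higher in wico and 181 in star, or 40.3% in wico. Of the original sites, 122 and 32 were called again there, since the cut also removes weak wico peaks that had ranked higher in star. No site changed sides in either setting. Ranking among the pairs alone gives both lists the same mean percentile, and the cut lowers the percentile of nearly every wico peak that stays. A lower share of wico thus follows in part by construction, and the part of list length was not tested. Since the balance changed with the ranking, the counts set neither class above the other.

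**Figure D2:**
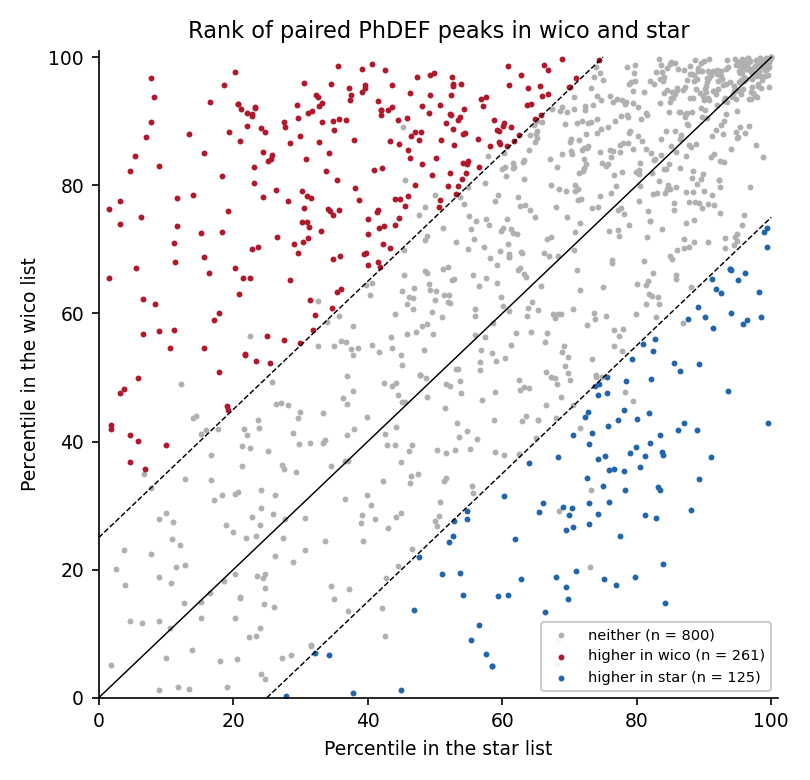
Percentile of each shared site in the star list (x axis) and in the wico list (y axis), with the 261 sites higher in wico, the 125 higher in star and the 800 others; dashed lines mark a shift of 25 points. The called sites fill the upper left and lower right, and the crowded corner near 100 on both axes leaves no room for a shift of 25 points.

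The strongest shared sites had small shifts, as the scale largely requires. When the sites were divided into 4 groups of equal size by the mean of both percentiles, 5 of 297 in the top group were higher in wico and 3 in star. In the group above the lowest, 54.4% of 296 sites were called, 107 to wico and 54 to star. The median size of the shift was 4.71 points in the former and 29.1 points in the latter. The grouping fixes much of this in advance. The top group began at a mean of 82.6, and a high mean of both percentiles leaves little room for a shift. Likewise, a site above percentile 75 in one list cannot rise by 25 points in the other. These counts therefore cannot tell whether strong sites are more alike in the chimeras than weaker ones. The 3 strongest sites ranked 1 to 3 in both chimeras. The first, at positions 2 to 267 of HiC_scaffold_48926, had signals of 38.8 and 42.9 in wico and 37.6 and 42.8 in star. The second, at positions 1 to 275 of HiC_scaffold_45804, had 37.5 and 41.4 in wico and 36.1 and 41.7 in star. The last of them, at positions 4 to 339 of HiC_scaffold_34455, had 31.1 and 34.7 in wico and 27.4 and 33.0 in star. These sites showed no shift above 0.04 points.

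Sites higher in wico were strong wico peaks that ranked low in the star list. Their median percentile was 84.6 in wico (82.2 to 87.0) and 35.4 in star (32.8 to 39.5). By single columns the medians were 84.0 and 83.8 in wico against 33.3 and 41.1 in star. The median shift was 42.1 points. The median summed signal of these sites in star was 8.81, against 9.59 over the whole star list, whose lowest value was 7.20. Small differences in signal can thus span many percentiles there. The star replicates were also further apart at these sites, with a median difference of 21.1 points between the star columns against 6.98 between the wico columns. Over all pairs these medians were 15.1 and 8.59 points.

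The largest shift to wico, at site W1, was at positions 103909000 to 103909524 of HiC_scaffold_4. Its signals were 12.7 and 10.5 in wico and 3.92 and 3.67 in star, and it ranked 139 of 4276 in wico and 2036 of 2216 in star, a shift of 89.0 points. The wico libraries stood near the top of their list and the star libraries near the bottom of theirs, with no overlap. Site W2, at positions 75996866 to 75997466 of the same scaffold, had 10.3 and 9.12 in wico and 3.39 and 4.20 in star, with a shift of 85.5 points. Site W3, at 54269311 to 54269810 of HiC_scaffold_4, had 9.21 and 7.96 in wico and 3.92 and 3.67 in star, with a shift of 82.1 points. The 3 largest shifts to wico thus all lay on HiC_scaffold_4, far from each other.

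Site W4, at 172723716 to 172724187 of HiC_scaffold_2, had 8.88 and 7.30 in wico and 3.57 and 4.00 in star, and shifted by 80.5 points. It was the only one of these 6 without a wild-type peak, the nearest being 22590 bp away. Site W5, at 126617027 to 126617677 of HiC_scaffold_1, had 7.78 and 7.43 in wico and 3.41 and 4.02 in star, and shifted by 79.2 points. Its summits in the chimeras lay 221 bp apart. Site W6, at 1745 to 2312 of HiC_scaffold_4259, had 6.96 and 7.60 in wico and 3.53 and 3.89 in star, and shifted by 77.6 points. The 6 sites had wico columns between percentiles 73.1 and 96.7 and star columns between 1.26 and 27.7.

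The strongest wico peaks among the sites higher in wico differed in their star rank. The first, at 6683353 to 6683743 of HiC_scaffold_1, ranked 11 in wico with 20.7 and 16.1 and 691 in star with 4.90 and 6.05. The second, at 153240393 to 153240948 of HiC_scaffold_2, ranked 17 in wico with 19.2 and 15.9 and 568 in star with 6.86 and 4.75. Its shift of 25.2 points came mainly from the second columns, which moved by 55.6 points against 10.3 in the first. The last of these, at 29057473 to 29058239 of HiC_scaffold_1, ranked 45 in wico with 17.4 and 11.6, and 1312 in star with 4.31 and 4.75, and here the columns moved by 55.5 and 53.5 points.

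Sites higher in star were good star peaks with a low rank in wico. Their median percentile was 75.9 in star (74.2 to 79.7) and 35.8 in wico (30.5 to 39.1), and the median shift was -37.5 points. By single columns the medians were 74.6 and 76.9 in star against 36.2 and 36.4 in wico. At these sites the replicates of both genotypes differed by similar amounts, with medians of 13.7 points in star and 14.4 in wico.

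The largest shift to star, at site S1, was at positions 79682442 to 79682773 of HiC_scaffold_4. Its signals were 6.66 and 7.34 in star and 3.69 and 3.80 in wico, and it ranked 266 of 2216 in star and 3882 of 4276 in wico, a shift of -79.0 points. The libraries of the genotypes did not overlap in percentile. Site S2, at 69118174 to 69118556 of HiC_scaffold_4, had 6.50 and 6.70 in star and 3.84 and 4.01 in wico, with a shift of -69.5 points, and its summits coincided. Site S3, at 44551069 to 44551544 of HiC_scaffold_3, had 5.24 and 6.10 in star and 3.73 and 3.54 in wico, with a shift of -67.0 points. HiC_scaffold_4 thus carried the most extreme site of each direction. It also held the most pairs, 199, of which 22.1% were higher in wico and 10.1% in star. Those shares were close to the 22.0% and 10.5% over all pairs.

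Site S4, at 54381747 to 54382086 of HiC_scaffold_6, had 5.58 and 7.52 in star and 4.23 and 3.97 in wico, and shifted by -63.0 points. Site S5, at 37279775 to 37280468 of HiC_scaffold_4, had 6.48 and 4.38 in star and 3.92 and 3.34 in wico, and shifted by -62.9 points. The star replicates of S5 disagreed, at percentiles 86.3 and 32.9, its summits lay 252 bp apart, and no wild-type peak lay within 1040847 bp. Site S6, at 180723998 to 180724813 of HiC_scaffold_2, had 5.29 and 7.13 in star and 4.09 and 3.98 in wico, and shifted by -60.8 points. Apart from the second column of S5, all star columns of these sites ranked between percentiles 68.4 and 87.9.

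**Figure D3:**
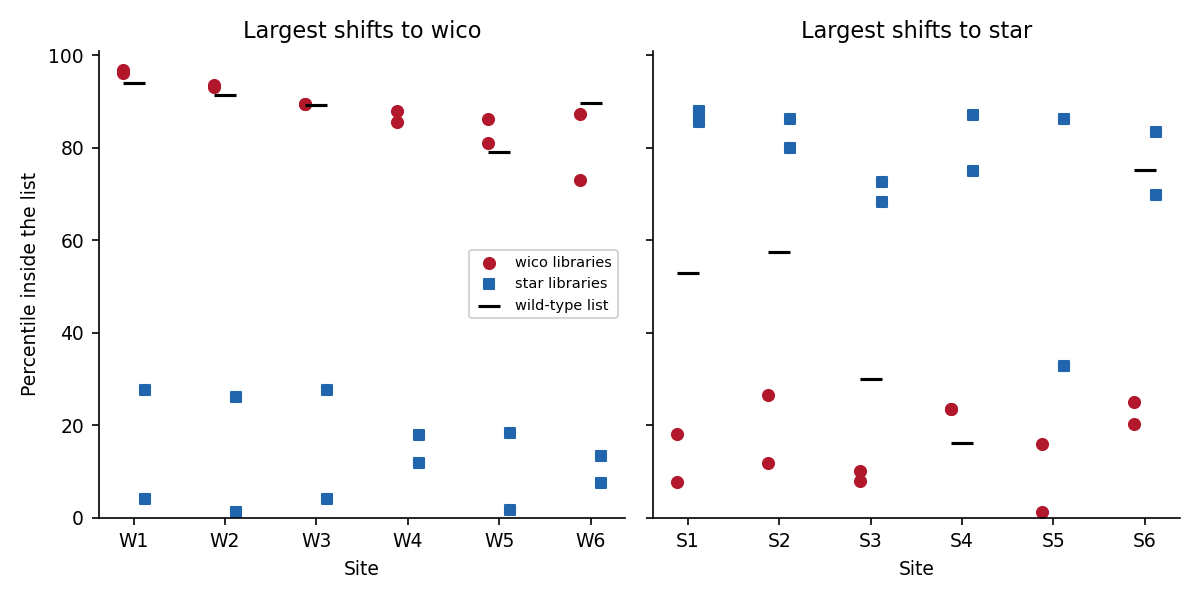
Percentile (y axis) of the 6 sites with the largest shift to wico, W1 to W6, and to star, S1 to S6, in each wico library (circles), each star library (squares) and the wild-type list (black bar, absent for W4 and S5). The wild-type bar sits beside the wico circles at the W sites, whereas at S1 to S3 it lies between the chimeras, at S4 below both and at S6 between the star squares.

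The strongest star peak among the sites higher in star was at 110243715 to 110244027 of HiC_scaffold_5. It ranked 11 in star with replicate signals of 12.94 and 12.96 and 2442 in wico with 5.12 and 4.52, and the columns moved by -54.4 and -57.1 points. The next, at 4826675 to 4827037 of HiC_scaffold_2, ranked 15 in star with 11.96 and 12.53 and 1266 in wico with 5.32 and 7.24. The next after it, at 95462599 to 95463040 of HiC_scaffold_1, ranked 16 in star with 7.80 and 15.7, a wide gap between replicates, and 1138 in wico with 6.71 and 6.20.

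The threshold cut through a continuous range of shifts. The sites just inside it shifted by 25.13 and 25.20 points to wico and by -25.05 and -25.16 points to star. Those just outside shifted by 24.92 and 24.87 points to wico and by -24.8 and -24.7 points to star. One of the outer sites, at 112171472 to 112171722 of HiC_scaffold_1, had its columns moving in opposite directions, at -13.6 and 51.9 points.

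The wild-type list, made from libraries that the rule did not use, held sites of the classes at different rates. A wild-type peak overlapped 227 of the 261 sites higher in wico, or 87.0% (82.3 to 90.8%), and 79 of the 125 sites higher in star, or 63.2% (54.1 to 71.6%). Of the sites that were neither, 79.0% (76.0 to 81.8%) had one. The share was thus lower at sites higher in star than in both other classes by more than counting error. The sites that were neither also ranked higher, with a median mean of both percentiles of 74.4 against 56.3 at sites higher in star. As a baseline, a wild-type peak overlapped 51.1% of all wico peaks and 50.8% of all star peaks, and 40.3% of wico peaks and 17.9% of star peaks that lacked a partner in the other chimera.

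Sites of the 2 called classes also differed in wild-type rank. Among those with a wild-type peak, the median wild-type percentile was 77.5 (74.5 to 79.5) for sites higher in wico and 51.4 (43.8 to 58.7) for sites higher in star. The single wild-type columns gave 72.3 and 75.7 for the former and 57.8 and 53.6 for the latter. The classes had similar means of the wico and star percentiles, with medians of 58.8 and 56.3. When sites were divided by that mean, sites higher in wico had a wild-type peak more often in each of 4 bands. The shares were 67.7% of 31 against 39.1% of 23 sites up to a mean of 40. They were 80.9% of 68 against 66.7% of 33 between 40 and 55, and 92.4% of 105 against 67.4% of 46 between 55 and 70. Above 70 they were 94.7% of 57 against 73.9% of 23. The intervals were apart only between 55 and 70, at 85.5 to 96.7% and 52.0 to 80.5%. In that band the median wild-type percentile was 77.8 for sites higher in wico, 55.2 for sites higher in star and 60.7 for sites that were neither. For sites that were neither, the shares in the same bands were 48.9% of 135, 55.3% of 94, 80.9% of 136 and 92.9% of 435. Sites higher in star were above these between 40 and 55 and below them elsewhere, with intervals apart only above 70. The lower share against sites that were neither was thus not seen in every band of the mean. By the percentile in the list where a site ranked higher, sites higher in star were below sites that were neither in each band. The shares were 42.9% against 50.7% up to 60, and 68.6% against 76.6% between 60 and 75. They were 64.6% against 88.1% between 75 and 90, and 71.4% against 96.9% above 90. Those intervals were apart only above 75. The comparison thus depended on the banding.

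Over all 938 sites with a wild-type peak, the wild-type percentile was nearer to the wico value at 612 (65.2%, 62.1 to 68.3%) and nearer to the star value at 325 (34.6%, 31.6 to 37.8%). At sites higher in wico with a wild-type peak, it was nearer to the wico value at 176 of 227 (77.5%, 71.5 to 82.8%), an interval above the share over all pairs. At sites higher in star it was nearer to the star value at 29 of 79 (36.7%, 26.1 to 48.3%), and nearer to the wico value at the other 50. The interval for star includes the share over all pairs. The wild-type percentile lay between the chimeras at 164 of 227 (72.2%) and 48 of 79 sites (60.8%). It lay above both at 45 (19.8%) and 6 (7.59%), and below both at 18 (7.93%) and 25 (31.6%). Over all 938 sites the shares were 46.3% between, 24.5% above both and 29.2% below both. The rule itself sets the chimeras far apart at called sites, which leaves more room between them. Requiring both wild-type columns to give the same answer left 125 of 227 (55.1%) nearer to wico in the first class. In the second it left 21 of 79 (26.6%) nearer to star and 36 (45.6%) nearer to wico. Over all 938 sites these shares were 45.4% nearer to wico and 21.7% nearer to star, so the second class was close to the general shares. Over the 938 sites, the rank correlation of the wild-type list was 0.81 with wico and 0.52 with star. The rank correlation of the replicates at the same kind of site was also higher in wico than in star, as given above, and its part in this difference was not tested.

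**Figure D4:**
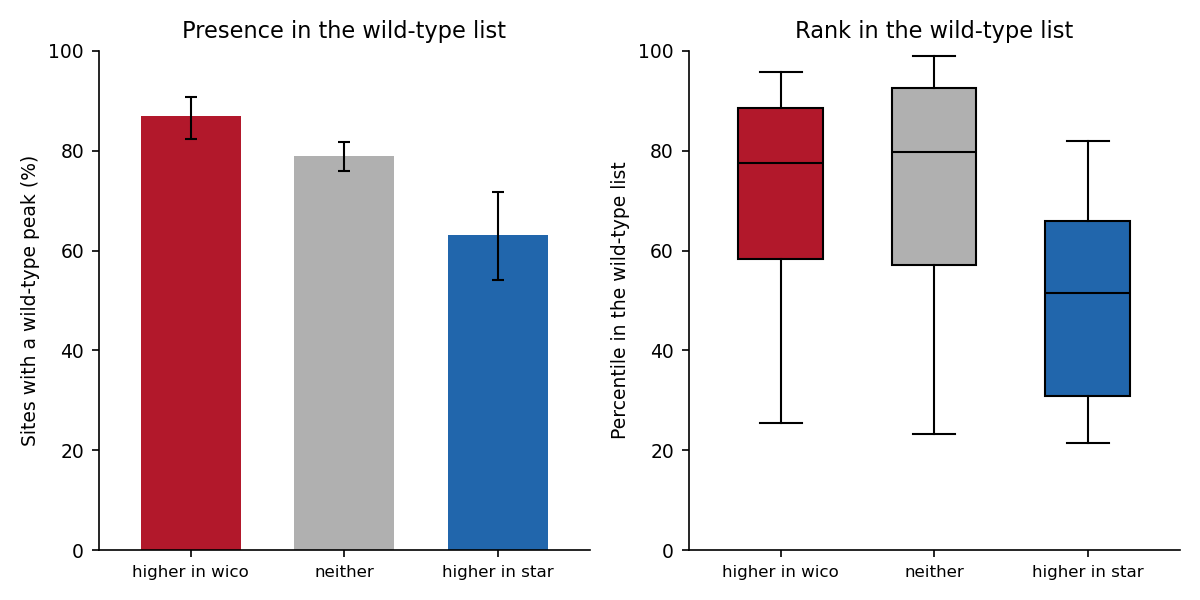
Left, percentage of sites of each class overlapped by a wild-type peak, with exact 95% intervals; right, percentile of those sites in the wild-type list (box, quartiles and median; whiskers, 5th to 95th percentile of sites). Sites higher in star are at 63.2% and a median of 51.4, below sites higher in wico at 87.0% and 77.5 and the others at 79.0% and 79.8.

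Among the sites with the largest shifts that had a wild-type peak, every W site had a higher wild-type percentile than any S site. The wild-type percentile was 94.0 at W1, 91.4 at W2, 89.2 at W3, 79.2 at W5 and 89.7 at W6. The W sites were picked for the largest shifts and so lay near the bottom of the star list. A wild-type percentile above their star percentile therefore says little. At the other sites the wild-type percentile was 52.9 at S1, 57.5 at S2, 30.1 at S3, 16.3 at S4 and 75.3 at S6. The wild-type signals were 5.45 and 12.3 at W1, where the replicates differed strongly, and 4.07 and 4.01 at S4. Of S1 to S6, only S6 had a wild-type percentile inside the range of its star columns. The 3 strongest sites higher in star had wild-type percentiles of 75.3, 78.3 and 96.6. The first and last of these were nearer to the star value than to the wico value. For the 3 strongest sites higher in wico the wild-type percentiles were 98.8, 99.2 and 97.1, all nearer to the wico value.

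The wico peak was the wider one at most sites higher in wico, and the star peak at a smaller majority of sites higher in star. At sites higher in wico the median width was 431 bp in wico (408 to 452) and 326 bp in star (306 to 343), and the wico peak was the wider one at 218 of 261 sites (83.5%, 78.5 to 87.8%). At sites higher in star the medians were 409 bp in wico and 413 bp in star, and the star peak was wider at 81 of 125 sites (64.8%, 55.8 to 73.1%). Over all pairs wico peaks were the wider ones at 66.4% of sites, so sites higher in star went against the general direction. The median log2 ratio of wico to star width was 0.36 (0.30 to 0.41) at sites higher in wico, 0.13 (0.10 to 0.15) at the others and -0.12 (-0.19 to -0.06) at sites higher in star. The last value was not stable. It was -0.06 (-0.13 to 0.06) by the first replicate column alone, -0.10 (-0.23 to 0.05) with each column past 25 points, and -0.0077 (-0.07 to 0.08) with the wico list cut to the length of the star list, so that no greater width in star can be told from 0 in these 3 settings.

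A listed peak spans the intervals of both replicates, so widths were also compared replicate by replicate. The median log2 ratio was 0.51 in the first and 0.41 in the second columns at sites higher in wico, and -0.21 and -0.16 at sites higher in star. Over all pairs these medians were 0.22 and 0.19. The wico peak was wider in both columns at 191 of 261 sites (73.2%), against 51.9% of all pairs. The star peak was wider in both at 58 of 125 (46.4%), against 14.3% of all pairs. Inside a list, width and signal were only weakly related, with rank correlations of 0.19 in wico and -0.02 in star, while across the sites the shift and the log2 width ratio had a rank correlation of 0.35. Width and signal come from the same reads, so the width is not an independent measure of the difference. S1 was an example, with 332 bp in wico and 920 bp in star, and W1 had 525 bp against 291 bp. S6 went the other way, with 816 bp in wico and 418 bp in star.

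**Figure D5:**
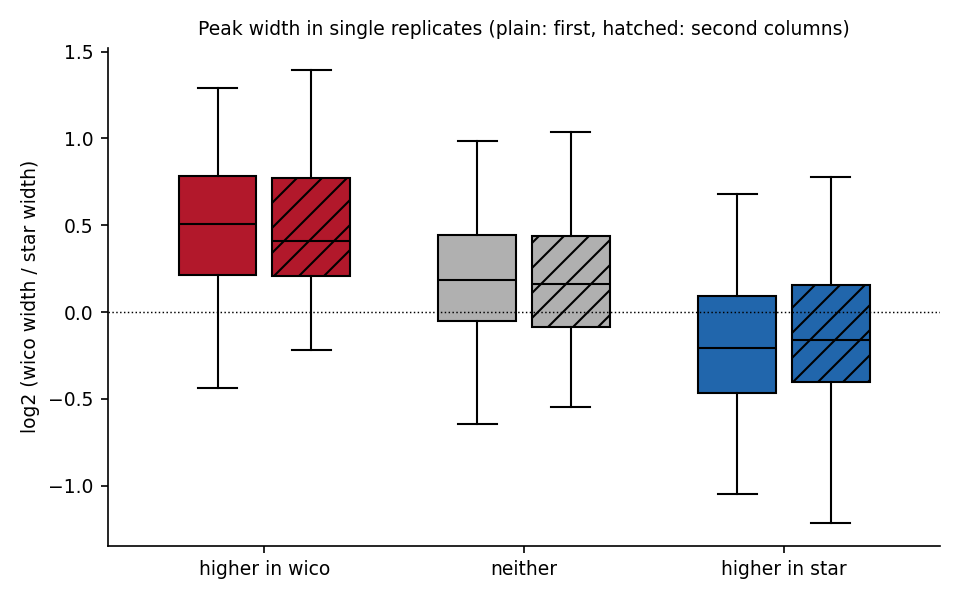
log2 ratio of the width of the wico peak to that of the star peak (y axis) in the first replicates (plain boxes) and the second (hatched boxes) for each class; boxes give median and quartiles, whiskers the 5th to 95th percentile of sites. Medians are 0.51 and 0.41 at sites higher in wico and -0.21 and -0.16 at sites higher in star.

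The shift in rank was not accompanied by a large shift in position. The summits in wico and star lay a median of 23 bp apart at sites higher in wico (18 to 26), 24 bp at sites higher in star (18 to 28) and 18 bp at the others (17 to 20). Replicates of 1 genotype were as far from each other, with medians of 19 bp in wico and 29 bp in star at sites higher in wico, and of 33 and 28 bp at sites higher in star. Summits were within 100 bp at 94.2% of sites higher in wico and at 89.4% of sites higher in star. The chimeras thus differed in summit position by no more than the star replicates did.

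Sites of both classes were spread over all 7 long scaffolds. Those scaffolds held 89.7% of sites higher in wico (85.3 to 93.1%), 84.8% of sites higher in star (77.3 to 90.6%) and 85.0% of the others, with overlapping intervals. On single long scaffolds, between 16.4% and 25.1% of pairs were higher in wico and between 8.47% and 12.9% were higher in star. HiC_scaffold_2 had the lowest wico share, at 23 of 140 pairs (10.7 to 23.6%), and HiC_scaffold_1 the highest, at 44 of 175 (18.9 to 32.2%), and these intervals overlapped. HiC_scaffold_3 had the highest proportion of wico among called sites, at 44 of 59, and HiC_scaffold_2 the lowest of the long scaffolds, at 23 of 38. No long scaffold stood apart from the rest by more than counting error.

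The shorter scaffolds held 27 sites higher in wico on 27 different scaffolds, and 19 sites higher in star on 18. The 2 sites that shared a scaffold, HiC_scaffold_1360, repeat the same replicate signals and are pieces of 1 called peak. Over all scaffolds 2 sites higher in wico and 4 higher in star were such pieces, and with each peak counted once the classes held 260 and 123 sites. Of 166 pairs there, 16.3% were higher in wico (11.0 to 22.8%) and 11.4% in star (7.03 to 17.3%). The median shift on these scaffolds was 1.34 points, against 4.72 to 8.17 points on the 7 long ones.

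Sites of opposite direction could lie close together. The nearest such neighbours were on HiC_scaffold_4631, 1165 bp apart between the middles of the stretches shared by wico and star. The one higher in wico, at positions 7695 to 8137, had signals of 14.8 and 12.6 in wico and 4.23 and 4.59 in star, and a wild-type percentile of 93.9. The one higher in star, at 6573 to 6846, had 4.85 and 4.35 in wico and 4.45 and 6.10 in star, and a wild-type percentile of 34.5. The first columns of the latter moved by only -8.65 points. Its call thus rested mainly on the second column.

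Close neighbours were few in either class. Of the sites higher in wico, 30 had another shared site within 10 kb, and that neighbour was higher in wico at 13, higher in star at 4 and neither at 13. Of the sites higher in star, 9 had such a neighbour, which was higher in wico at 4, higher in star at 0 and neither at 5. Of the 800 others, 67 had one, which was higher in wico at 13, higher in star at 5 and neither at 49. Over all pairs, 22.0% were higher in wico and 10.5% in star. Mutual neighbours are counted from both sides here. Another wico peak, shared or not, lay within 10 kb of 26.4% of sites higher in wico (21.2 to 32.2%), 22.4% of sites higher in star (15.4 to 30.7%) and 23.8% of the others. For other star peaks the shares were 13.8%, 12.8% and 12.2% in the same order. The classes did not differ in crowding beyond counting error.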

How the data were processed

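Each deposited list is a set of peaks in 21 columns in the layout of the idr program, and its name states that input was removed. The submitters' processing notes name Bowtie2 2.4.2, MACS2 and bedtools without their roles. The genome build and the reference of the signal are not stated in these sources. Lists were assigned to genotypes by the library numbers in their names, which match the labels. The signal values deposited by the authors are summed over 2 replicates, and the sum was checked in every row. The deposited −log10 values of the irreproducible discovery rate (IDR) reach a largest global rate of 0.1. The score deposited by the authors was not used for any result.

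Percentiles are mid-ranks inside a list. The first column of wico was compared with the first of star and the second with the second. Of the wico and star peaks, 157 and 147 were listed shorter than the joint interval of their replicates, and pieces of 1 peak were kept as sites but not counted as neighbours. Summit distances leave out peaks whose summit lies outside the listed interval. A site without a wild-type peak has no wild-type percentile. The bands of the mean percentile, and those of the percentile in the list where a site ranked higher, were chosen after seeing the data. Members, lists and rules were chosen with earlier results of these data known. Sites named are the 6 with the largest shift each way, the 3 strongest of each class, the 3 strongest pairs, the 2 nearest to the threshold on each side and the closest opposite pair. The work was done with scipy 1.17.1, pandas 2.3.3 and numpy 2.4.6 under Python 3.11.15, and the pairing and calling code was tested on simulated data.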

Additional observations from a re-analysis of the deposited data

How the results depend on the processing

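The 12 results were recomputed under up to 16 alternatives each, giving 175 values, of which 145 stayed within 1.5 times the reported count or within the interval of the reported value. Pairing by reciprocal overlap of 50% or by centres at most 100 bp apart, reducing groups to their strongest peaks, dropping the condition on the columns, requiring both columns of one list above both of the other, the 7 long scaffolds alone, and leaving out peaks shortened by the removal of input (an alternative chosen after seeing the data) moved no count by over 1.5 times and no other value beyond its interval. Leaving out 1 replicate, by ranking on the other column alone, gave 280 to 322 sites higher in wico and 130 to 164 higher in star, and the median log2 width ratio at sites higher in star was -0.06 to -0.10, with an interval that spans 0 by the first column alone. The counts were similar, but the sites were only partly the same. Of the original 261 and 125 sites, 209 and 90 were called again by the first column alone, and 195 and 82 by the second.

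With percentiles among pairs only, 204 sites were higher in star, the median shift was -0.25, and at sites higher in wico the wild-type share was 90.8%, the median wild-type percentile 80.9 and the log2 width ratio 0.42. A median near 0 follows there by construction. With the wico list cut to the length of the star list, 122 sites were higher in wico, the median shift was -1.76, the wild-type share at sites higher in wico was 92.6%, the median wild-type percentiles were 84.8 and 61.4 for sites higher in wico and star, and the log2 width ratios 0.42 and -0.0077, which ends the greater width in star at sites higher in star. With a global IDR of at most 0.02 there were 756 pairs and 82 sites higher in star, the median shift was 8.07, the wild-type shares were 93.7% and 73.2%, the wild-type percentiles 82.9 and 63.3, and 85.0% of sites higher in wico were on long scaffolds. Of the 206 sites higher in wico and 82 higher in star at this limit, 91 and 62 were among the original sites. A shift of 15 gave 189 sites higher in star, and a shift of 35 gave 172 in wico and 73 in star. With each column past 25, 146 and 50 sites remained, and the wild-type percentile at those higher in wico was 81.0. With a centred log2 signal ratio of at least log2 of 1.5, 133 sites were higher in wico, with a wild-type share of 97.7%, a wild-type percentile of 91.4 and a log2 width ratio of 0.42. Of the 133 sites higher in wico and 105 higher in star by this ratio, 100 and 91 were among the original sites. The cause of these changes between settings was not tested. In every alternative the wild-type share and percentile were higher at sites higher in wico than at sites higher in star.

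No paired analysis was possible because the results come from no test and the columns carry no replicate numbers, only their order. Absence of a wild-type peak can mean a signal under the authors' threshold, and the unknown depth limits what it shows.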
